A study of Schizosaccharomyces pombe with 70 samples.

Results

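Transcript levels in a cds1 mutant of the fission yeast Schizosaccharomyces pombe were compared with those in wild type after 120 min in hydroxyurea. The comparison used 6 of the 70 arrays of the series, 3 per strain, chosen by the strain and time in their labels. The tested strain was the cds1 mutant, from an unsynchronised culture kept in 8 mM hydroxyurea for 120 min, and its comparator was wild type treated in the same way. Beside them stood 4 further groups of 3 arrays: rad3 and chk1 mutants at 120 min, and the cds1 mutant and wild type at 0 min. Time courses also used the cds1 mutant and wild type after 10, 30 and 60 min in 8 mM hydroxyurea. In wild type at 30 and at 60 min 2 of the 3 arrays were averaged into 1 sample. The labels call the arrays of a group biological repeats. They do not give the alleles of the mutants or the markers used to build the strains. Every array compared cDNA of one culture, labelled with Cy5, with cDNA of untreated wild-type cells, labelled with Cy3. Each value below is therefore a log2 ratio to untreated wild type, averaged over the 2 probes of a gene, and is called a level. A difference is the mean level in the cds1 mutant minus the mean level in wild type.

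Hydroxyurea inhibits ribonucleotide reductase, the enzyme that makes deoxyribonucleotides, and so stalls replication forks. In fission yeast the kinase Rad3 senses stalled forks and activates the effector kinase Cds1, which holds back mitosis, protects the forks and keeps the G1/S transcription factor MBF active. Chk1, the kinase that answers DNA damage, is known to take over part of the arrest when Cds1 is missing.

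Each of the 6 arrays held 9838 to 9854 of 9858 probe values. Their medians lay between -0.05 and -0.02, and the correlation across genes of the 2 probes of a gene was 0.672 to 0.849 within an array. The SD of the difference between arrays of one group was 0.204 to 0.286. The targeted gene was read first. cds1, on chromosome III, had levels of -2.74, -2.47 and -2.29 on the cds1 arrays and of 0.40, 0.32 and 0.51 on the wild-type arrays. All 3 mutant arrays lay far below all 3 wild-type arrays, with a difference of -2.91 ± 0.17 (SE, limma, adjusted p = 1.5e-18), and the gap at 0 min was -2.50. rad3, chk1 and sep1, which encode the upstream kinase, the second effector kinase and a forkhead transcription factor, did not pass the test, with differences of -0.18, 0.14 and -0.04. ura4, an enzyme of uracil synthesis and a common selectable marker, had levels of -1.10, -0.89 and -0.73 in the cds1 mutant and of 0.31, 0.62 and 0.52 in wild type. Its difference of -1.39 at 120 min was close to that of -1.47 at 0 min, so the gap was there before treatment. The part of strain construction in the ura4 values was not tested.

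At 120 min 629 of 4921 genes differed between the cds1 mutant and wild type (limma, adjusted p under 0.05, here called a call). Of these, 319 were higher in the mutant, which is 6.48% of the genes tested, and 310 were lower, which is 6.3%. The difference was at least 1 for 22 of the higher genes and at most -1 for 24 of the lower ones. The median difference over all genes was -0.01. All 3 cds1 arrays lay above all 3 wild-type arrays for 702 genes (14.3%) and below them for 668 genes (13.6%), and 307 of the 319 and 290 of the 310 called genes were among these. Leaving out cds1 replicate 1 brought the number of calls to 350, which was the lowest of the 6 fits that left out 1 array, and scaling all arrays to one distribution brought it to 243.

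**Figure D1:**
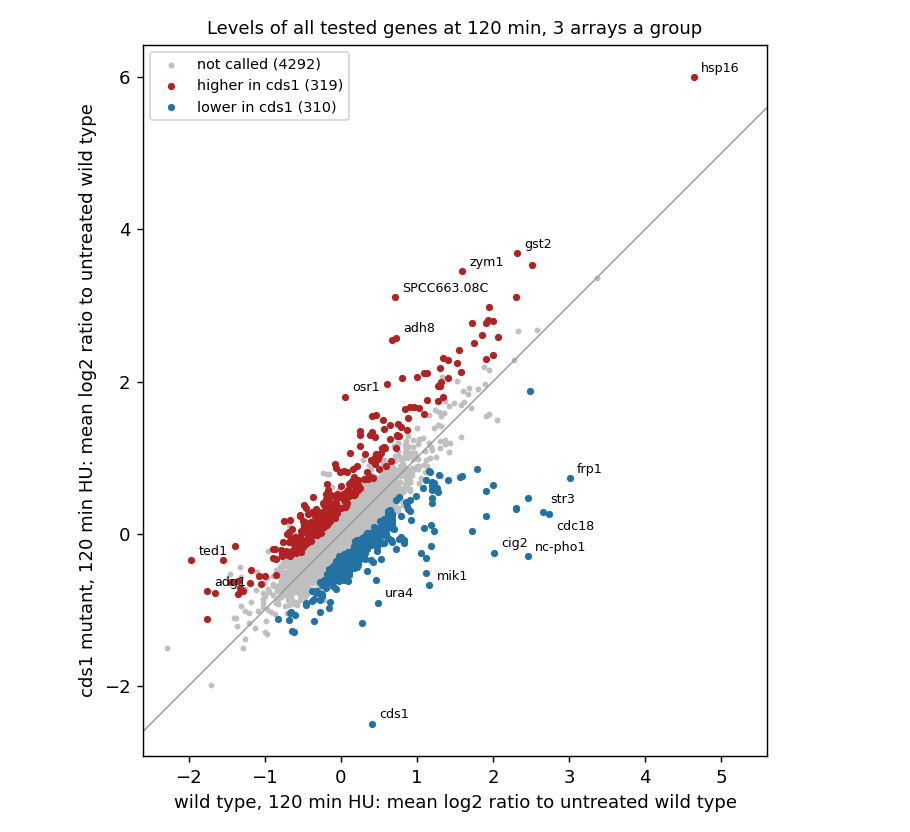
Mean log2 ratio to untreated wild type of each of 4921 genes in the cds1 mutant (vertical axis) against wild type (horizontal axis) after 120 min in hydroxyurea, 3 arrays a group; the line marks equal levels. The 319 genes higher in the mutant (red) include SPOM_SPCC663.08C at 3.11 against 0.71, and the 310 lower ones (blue) include cdc18 at 0.26 against 2.73.

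G1/S genes that MBF drives were 8 of the 15 largest decreases. Of 21 MBF genes tested, 14 were lower in the cds1 mutant and 0 were higher, with a median difference of -0.84 against -0.01 for all genes. Of the 14, 12 passed in each of the 6 fits that left out 1 array, and 12 passed with all arrays scaled to one distribution. The median level of the list was 0.07 in the cds1 mutant and 0.84 in wild type at 120 min, against 0.08 in the mutant and 0.15 in wild type at 0 min. These are bulk measurements of unsynchronised cells, so a smaller share of cells in a cell cycle phase and less RNA per cell cannot be told apart.

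cdc18, which loads the replicative helicase onto origins, had levels of 0.34, 0.32 and 0.12 in the cds1 mutant and of 2.71, 2.86 and 2.62 in wild type. The groups were wide apart, at a difference of -2.47 ± 0.14 (SE, limma, adjusted p = 2.5e-19), or 0.18 times the wild-type level. cdt1, its partner in licensing, had levels of 0.47, 0.19 and 0.04 in the mutant and of 1.96, 2.05 and 1.71 in wild type, a difference of -1.67. cdt2, the adaptor of the ubiquitin ligase that removes Cdt1, had levels of 0.23, 0.39 and 0.34 in the mutant and of 2.12, 2.46 and 2.33 in wild type, a difference of -1.99. None of these 3 genes had overlapping groups. cig2, the S phase cyclin, stood at -0.39, -0.18 and -0.19 in the mutant and at 1.89, 2.20 and 1.96 in wild type, a difference of -2.27. mik1, a Wee1-like kinase that inhibits Cdc2, stood at -0.72, -0.64 and -0.68 in the mutant and at 0.96, 1.32 and 1.22 in wild type, a difference of -1.84. For both genes, which act on Cdc2, every mutant array was below 0 and every wild-type array near 1 or above.

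cdc22, the large subunit of ribonucleotide reductase and so of the enzyme that hydroxyurea inhibits, had levels of 0.38, 0.27 and 0.37 in the cds1 mutant and of 2.40, 2.46 and 2.04 in wild type. The difference was -1.96 ± 0.11 (SE, limma, adjusted p = 3.7e-19), with no overlap. The small subunit suc22 and the inhibitor spd1 did not pass the test, with differences of -0.33 and 0.12. dut1, which hydrolyses dUTP, had levels of -0.48, -0.62 and -0.44 in the mutant and of 1.17, 1.18 and 1.03 in wild type, a difference of -1.64. tos4, a protein with a forkhead-associated domain, had levels of 0.77, 0.27 and 0.37 in the mutant and of 2.69, 2.27 and 2.42 in wild type, a difference of -1.98. The MBF corepressor gene nrm1 was lower by the test too, with a difference of -0.95, while the MBF subunit genes cdc10, res1 and res2 did not pass it, with differences of -0.37, 0.25 and 0.18.

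The low levels of these genes in the cds1 mutant at 120 min followed different courses in the 2 strains. cdc18 in the cds1 mutant stood at 0.53 ± 0.10, 0.44 ± 0.07, 0.43 ± 0.07, 0.51 ± 0.25 and 0.26 ± 0.12 (SD, n = 3) after 0, 10, 30, 60 and 120 min. In wild type cdc18 stood at 0.49 ± 0.12, 1.01 ± 0.11, 1.52 ± 0.03, 2.12 ± 0.08 and 2.73 ± 0.12 at the same times (SD, n = 2 or 3). The mutant level thus stayed within about its own spread of the 0 min level up to 60 min, while the wild-type level was higher at each later time. Over the same series cdc22 stood at 0.64, 0.82, 0.81, 0.86 and 0.34 in the mutant. In wild type it stood at 0.59, 0.91, 1.44, 2.03 and 2.30. The means of cdc22 lay within 0.1 of each other up to 10 min and were further apart from 30 min on.

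**Figure D2:**
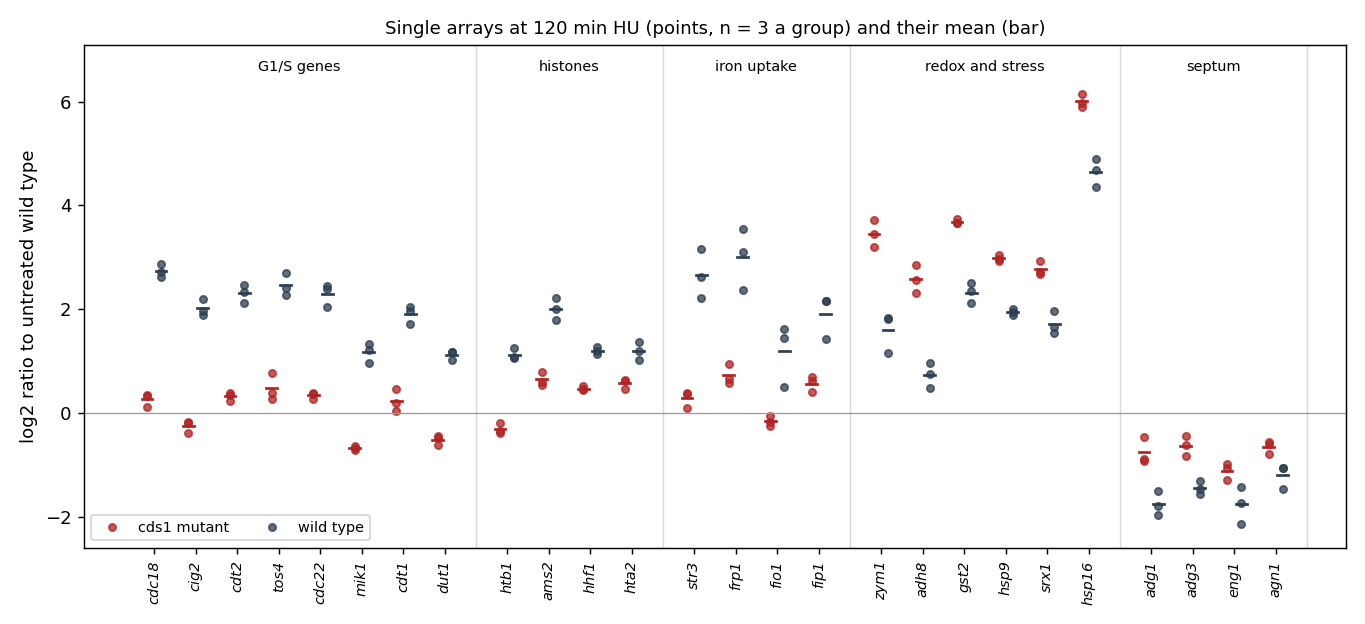
Levels of 26 genes on the single arrays at 120 min (points, log2 ratio to untreated wild type) with their mean (bar), the cds1 mutant in red left of wild type in dark blue, 3 arrays each. In the G1/S, histone and iron uptake groups every mutant array lies below every wild-type array, and in the redox, stress and septum groups every mutant array lies above every wild-type array.

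Histone genes, which are made in S phase, were also lower. Of 11 genes in the histone list, 7 were lower in the cds1 mutant and 0 were higher, with a median difference of -0.51. Only 4 of the 7 passed in each fit that left out 1 array, and these were htb1, ams2, hhf1 and hta2. htb1, which encodes histone H2B, had levels of -0.34, -0.20 and -0.39 in the mutant and of 1.08, 1.05 and 1.24 in wild type, a difference of -1.44 ± 0.12 (SE, limma, adjusted p = 2.5e-13). ams2, a GATA factor needed for histone transcription, had levels of 0.60, 0.53 and 0.79 in the mutant and of 2.01, 2.21 and 1.79 in wild type, a difference of -1.36. Neither gene had overlapping groups. hhf1, a histone H4 gene, differed by -0.73, and hta2, a histone H2A gene, by -0.62. Other than htb1, histone genes have copies of nearly the same sequence, which leaves their single values uncertain.

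Of 10 genes in the cohesin list 6 were lower and 0 were higher, with a median difference of -0.44. Cohesin is the ring that holds sister chromatids together, and the list also holds genes for proteins outside the ring, such as eso1 and sap1. psm3, an SMC subunit, had levels of 0.06, -0.08 and -0.12 in the cds1 mutant and of 0.57, 0.86 and 0.95 in wild type, a difference of -0.84. psc3, psm1 and the acetyltransferase gene eso1 differed by -0.66, -0.65 and -0.52, and with psm3 they were the 4 members that passed without each array in turn. The call of psm1 was lost on its first probe alone (-0.37) and that of eso1 on its second probe alone (-0.43). Among fork and polymerase genes 6 of 28 were lower and 2 higher, with a median difference of -0.08. mrc1, the mediator through which Rad3 activates Cds1, differed by -1.02, and ssb1, the large subunit of the single-strand binding protein RPA, by -0.80. ssb3, the small RPA subunit, was higher, with a difference of 0.65, and its levels of -0.04, 0.01 and -0.29 in the mutant and of -0.58, -0.83 and -0.88 in wild type did not overlap. Its first probe alone gave 0.32 and no call. The origin and licensing list had 3 of 24 genes lower, cdc18, cdt1 and the helicase subunit mcm6 (difference -0.48), and 0 higher. The median difference of this list was 0.02, and the first probe of mcm6 alone gave -0.36 and no call. Of 33 DNA repair genes 3 were lower and 3 higher, against 6.3% lower and 6.48% higher over all genes. Of these, mus81, a nuclease subunit with a difference of 0.38, was the only one to pass without each array in turn. Its call was lost with all arrays scaled to one distribution (0.35), on each probe alone and in the fit of only the groups compared.

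**Figure D3:**
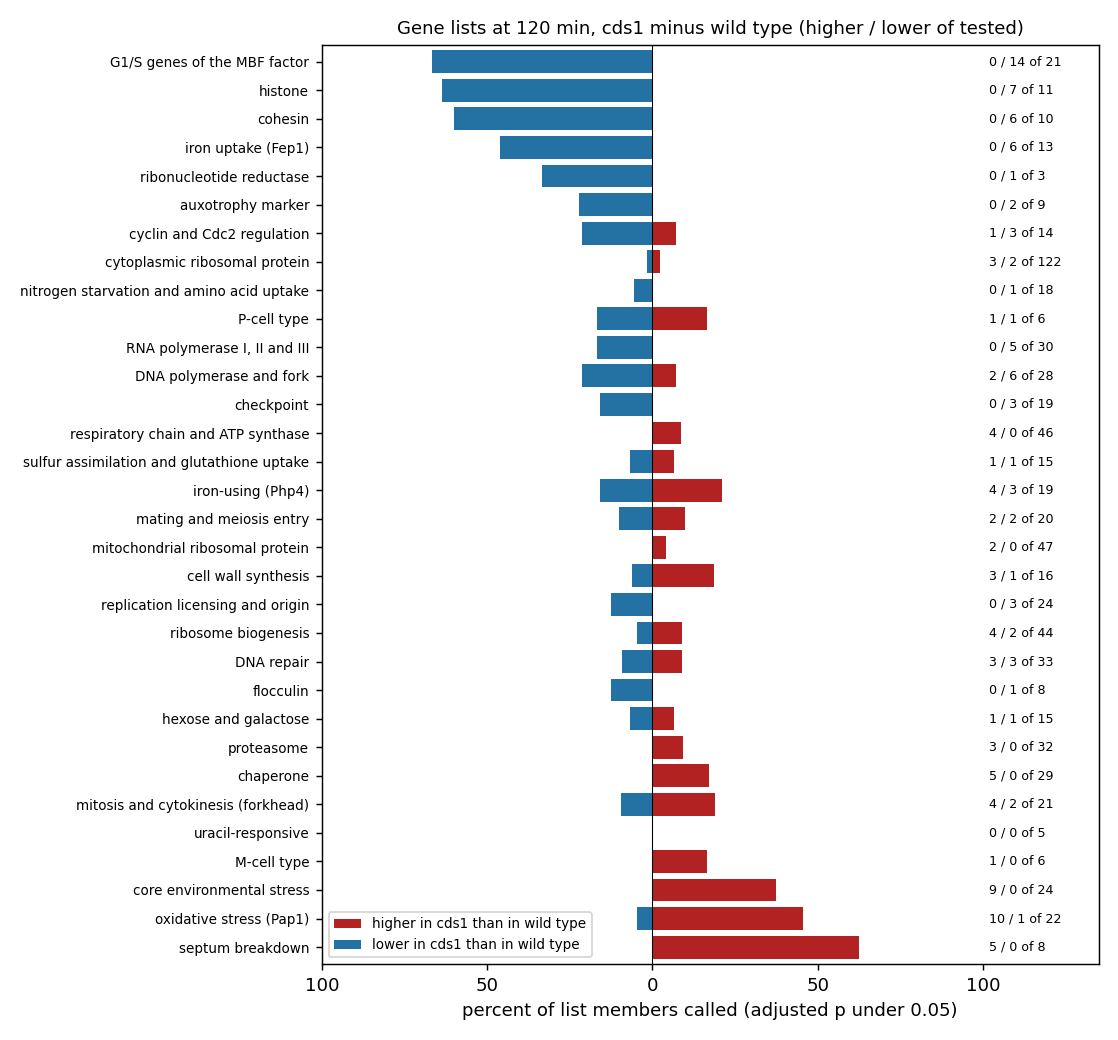
Share of each of 32 gene lists, in percent of the members tested, that was called higher (red, right) or lower (blue, left) in the cds1 mutant than in wild type at 120 min, ordered by the median difference of the list; the counts of higher and lower members stand at the right. The MBF list has 14 of 21 members lower, and the septum breakdown list has 5 of 8 higher.

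Iron uptake genes, repressed by the GATA factor Fep1 when iron is plentiful, were another group on the lower side. Of 13 genes 6 were lower in the cds1 mutant and 0 were higher, all 13 differences were negative, and the median difference was -0.39. All 6 passed without each array in turn and with all arrays scaled to one distribution. frp1, a ferric reductase, had levels of 0.95, 0.66 and 0.57 in the mutant and of 3.11, 3.54 and 2.37 in wild type. The difference was -2.28 ± 0.20 (SE, limma, adjusted p = 4.6e-12). str3, a transporter gene of the siderophore transporter family, had levels of 0.37, 0.39 and 0.10 in the mutant and of 2.62, 3.15 and 2.21 in wild type, a difference of -2.38. Wild-type replicate 3 was the lowest wild-type array for both genes and still lay above every mutant array. The ferroxidase fio1 and the iron permease fip1, which work as a pair at the cell surface, each differed by -1.35. php4, the iron-responsive repressor of genes for iron-using proteins, was lower too, at -0.42, -0.27 and -0.29 in the mutant and 0.65, 0.47 and 0.45 in wild type, a difference of -0.86. Among the 19 genes of the iron-using list 4 were higher and 3 lower, including php4 itself. The aconitase gene aco1 and the succinate dehydrogenase gene sdh1 were higher, with differences of 0.55 and 0.49, and the iron-sulfur scaffold gene isu1 was lower, with a difference of -0.46.

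The transcript annotated as nc-pho1, on chromosome II, had the largest decrease after cds1 itself. Its levels were -0.14, -0.37 and -0.39 in the cds1 mutant and 2.47, 2.54 and 2.36 in wild type, a difference of -2.76 ± 0.13 (SE, limma, adjusted p = 5.3e-21). The groups did not overlap. After 0, 30, 60 and 120 min nc-pho1 stood at 0.69, 0.33, -0.15 and -0.30 in the mutant, and at 0.16, 0.00, 0.82 and 2.46 in wild type. The difference of nc-pho1 at 0 min was 0.53. It did not pass the test in the fit that left same-numbered replicates unpaired (limma, adjusted p = 0.076). The flocculin gene pfl3, which encodes a cell surface protein of cell aggregation, was lower at 120 min, with a difference of -0.80. At 0 min its difference of 0.49 did not pass the test in the same unpaired fit, and the difference in change was -1.29 (limma, adjusted p = 1.3e-06). SPOM_SPAC27D7.11C, of no role given in the annotation used here, had a difference of -1.69 at 120 min and of -0.71 at 0 min.

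On the higher side were redox genes that the transcription factor Pap1 controls. Of 22 tested, 10 were higher in the cds1 mutant and 1, the peroxiredoxin gene pmp20, was lower, with a median difference of 0.33. Of the 10 higher genes 9 passed without each array in turn, and 7 passed with all arrays scaled to one distribution. gst2, a glutathione S-transferase, had levels of 3.66, 3.66 and 3.74 in the mutant and of 2.34, 2.50 and 2.12 in wild type. The difference was 1.36 ± 0.11 (SE, limma, adjusted p = 7.9e-14), or 2.57-fold. adh8, an alcohol dehydrogenase gene, had levels of 2.86, 2.31 and 2.56 in the mutant and of 0.74, 0.95 and 0.48 in wild type, a difference of 1.85. srx1, the sulfiredoxin that restores oxidised peroxiredoxin, had levels of 2.92, 2.72 and 2.68 in the mutant and of 1.65, 1.97 and 1.54 in wild type, a difference of 1.06. These 3 genes were above 0 on all 6 arrays, so they were above untreated wild type in both strains and further above it in the mutant. caf5, a membrane transporter gene, differed by 1.09, but its second probe alone gave 0.23 and no call.

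Of 24 core environmental stress genes 9 were higher and 0 were lower, with a median difference of 0.25. Scaling all arrays to one distribution left 5 higher and a median difference of 0.10. At 0 min the median difference of this list was 0.13, with 0 calls. For the difference in change 5 of 24 passed, all above 0, and 0 passed with all arrays scaled to one distribution. zym1, a metallothionein, had levels of 3.72, 3.20 and 3.44 in the cds1 mutant and of 1.81, 1.83 and 1.15 in wild type, a difference of 1.86 ± 0.22 (SE, limma, adjusted p = 1.0e-08). Its difference in change was 1.165, a call that ended with all arrays scaled to one distribution (0.38). hsp9, a small stress protein, had levels of 2.97, 2.92 and 3.04 in the mutant and of 1.95, 1.88 and 2.01 in wild type, a difference of 1.03. gut2, a glycerol-3-phosphate dehydrogenase, stood at 0.15, 0.16 and 0.20 in the mutant and at -0.60, -0.68 and -0.96 in wild type, a difference of 0.92. None of these 3 genes had overlapping groups. The catalase gene ctt1 differed by 0.91, but its probes disagreed: the first alone gave -0.12 and no call.

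hsp16, the small heat shock protein gene, was the highest of all genes on each of the 6 arrays. Its levels were 5.97, 5.89 and 6.15 in the cds1 mutant and 4.69, 4.88 and 4.35 in wild type. The groups did not overlap and differed by 1.36 ± 0.15 (SE, limma, adjusted p = 1.3e-09). At 0 min the levels were 2.41 ± 0.13 in the mutant and 0.77 ± 0.01 in wild type (SD, n = 3 each), a difference of 1.64, so the gap was already there and the change over 120 min did not pass the test (-0.28, limma, adjusted p = 0.56). Because it held the top rank on all 6 arrays, scaling them to one distribution sets its difference to 0. The other chaperone genes gave 4 further calls, all higher, among 29 tested with a median difference of 0.10. At 0 min the median difference of this list was 0.08, and for the difference in change 0 of 29 passed, with a median of -0.06. The disaggregase hsp104 differed by 1.03, the Hsp70 gene ssa1 by 0.67 and the mitochondrial cochaperone mdj1 by 0.60. None of the 5 chaperone calls remained when all arrays were scaled to one distribution, where hsp104 differed by 0.45, ssa1 by 0.31 and mdj1 by 0.38.

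The largest increase of all belonged to SPOM_SPCC663.08C on chromosome III, with levels of 3.17, 3.18 and 2.98 in the cds1 mutant and of 0.58, 1.01 and 0.54 in wild type. The difference was 2.40 ± 0.15 (SE, limma, adjusted p = 3.0e-17), or 5.28-fold. SPOM_SPCC18B5.02C, also on chromosome III, had levels of 2.92, 2.41 and 2.30 in the mutant and of 0.61, 0.70 and 0.73 in wild type, a difference of 1.87. osr1 had levels of 1.68, 1.84 and 1.89 in the mutant and of 0.04, 0.10 and 0.03 in wild type, a difference of 1.75. For osr1 the wild-type arrays were near the untreated level and the mutant arrays well above it. The others among the 15 largest increases were ted1 (1.61), SPOM_SPCC338.18 (1.36), SPOM_SPAC2E1P3.01 (1.25), SPOM_SPBC17G9.12C (1.22), SPAC23A1.01c (1.21), noc4 (1.15) and nab3 (1.10), with the difference in brackets. In ted1, SPOM_SPBC17G9.12C and SPAC23A1.01c all arrays of both strains were below 0, those of wild type further. The call of SPOM_SPBC17G9.12C was lost without wild-type replicate 2 (0.99) and without wild-type replicate 3 (1.10), and noc4 differed by 0.08 on its second probe alone.

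Most cell separation genes were higher in the cds1 mutant at 120 min. Of 8 septum breakdown genes, which act at the end of cytokinesis, 5 were higher in the mutant and 0 were lower, and the median difference was 0.55. The median level was -0.55 in the mutant and -0.91 in wild type. adg1 had levels of -0.92, -0.88 and -0.47 in the mutant and of -1.80, -1.97 and -1.52 in wild type, a difference of 1.00 ± 0.16 (SE, limma, adjusted p = 8.5e-06). adg3 had levels of -0.84, -0.44 and -0.63 in the mutant and of -1.56, -1.32 and -1.46 in wild type, a difference of 0.81. Both genes had groups that did not overlap. The endoglucanase genes eng1 and agn1, which cut the septum, differed by 0.65 and 0.55. The call of eng1 was lost on its second probe alone (0.47). That of agn1 was lost on its second probe alone (0.34), without wild-type replicate 2 (0.42) and with all arrays scaled to one distribution (0.47). At 60 min the spreads of adg1 overlapped, at 0.17 ± 0.20 in the mutant and 0.32 ± 0.20 in wild type (SD, n = 3 and 2).

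Of 21 mitosis and cytokinesis genes, many of them targets of forkhead factors, 4 were higher in the cds1 mutant and 2 were lower, with a median difference of 0.11. uds1 differed by 0.62 and spo12, a regulator of mitotic exit, by 0.58. The call of slp1, the activator of the anaphase-promoting complex (difference 0.44), was lost without wild-type replicate 3 (0.38), and that of klp8, a kinesin-like protein gene (difference -0.60), without cds1 replicate 1 (-0.49). Of 16 cell wall genes 3 were higher and 1 was lower, against 6.48% higher and 6.3% lower over all genes. gas5 and exg1, a glucanosyltransferase and a glucan glucosidase, both differed by 0.56. The call of gas5 was lost on its second probe alone (0.31). That of exg1 was lost on each probe alone and with all arrays scaled to one distribution (0.43). Of 14 genes for cyclins and regulators of Cdc2, 1 was higher and 3 were lower, the higher share being near the 6.48% over all genes. The higher one was cdr1 (0.38), a kinase that inhibits Wee1. Its call was lost on each probe alone and with all arrays scaled to one distribution (0.33).

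**Figure D4:**
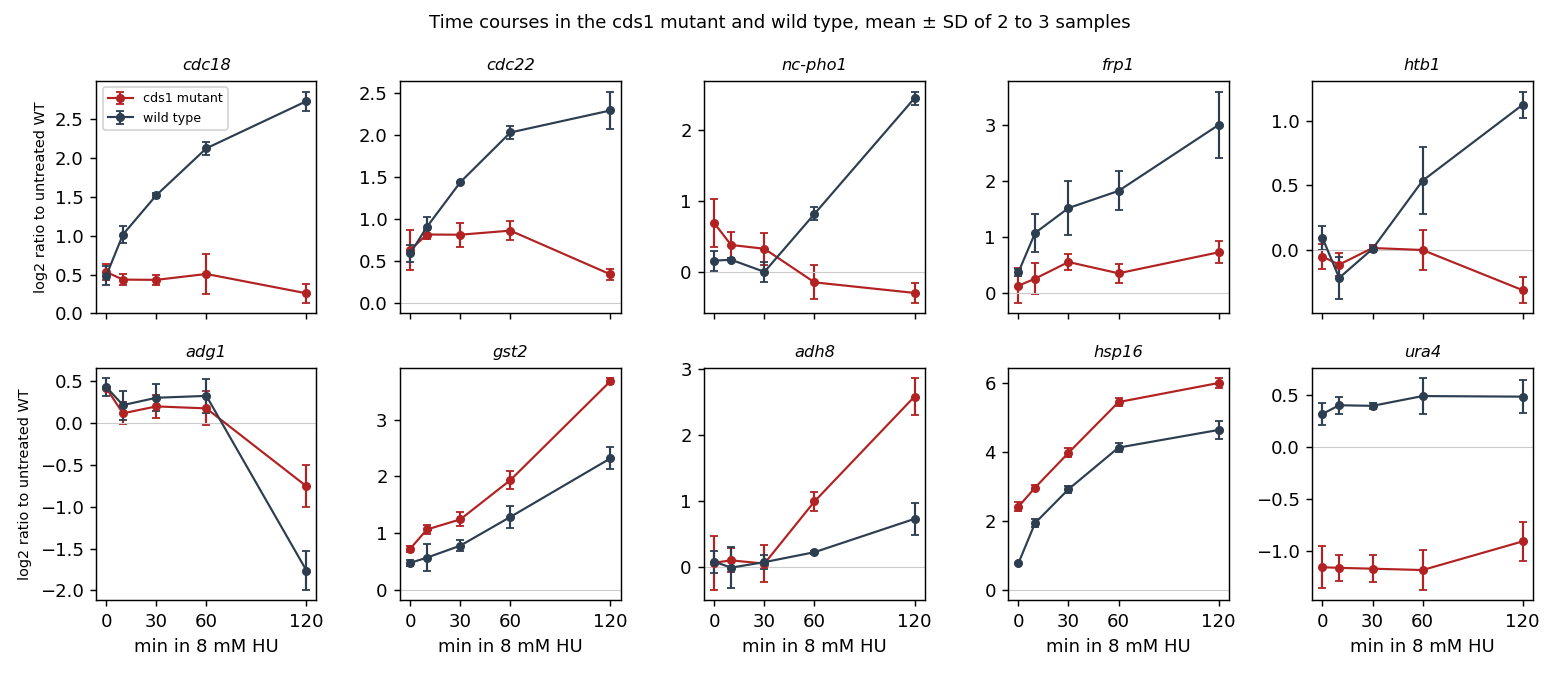
Levels of 10 genes at 0, 10, 30, 60 and 120 min in 8 mM hydroxyurea, mean and SD of 2 or 3 samples, the cds1 mutant in red and wild type in dark blue (log2 ratio to untreated wild type). cdc18 in the mutant stays between 0.26 and 0.53 while wild type reaches 2.73, and the gaps in hsp16 and ura4 are present at 0 min.

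Calls in several large gene groups seldom passed without each array in turn. Of 122 cytoplasmic ribosomal protein genes 3 were higher and 2 lower (median difference -0.10), of 47 mitochondrial ribosomal protein genes 2 were higher and 0 lower, and of 46 respiratory chain genes 4 were higher and 0 lower. Ribosome assembly had 4 of 44 genes higher and 2 lower, including the nucleolin-like gar2 at -0.82, RNA polymerase subunits 0 of 30 higher and 5 lower, and the proteasome 3 of 32 higher and 0 lower. In these 6 lists together only gar2, the shared polymerase subunit rpb8 (-0.58) and sdh1 passed without each array in turn. The shares of called genes were near or below the background of 6.48% higher and 6.3% lower in the list of cytoplasmic ribosomal proteins and in that of mitochondrial ones. The share of lower genes among polymerase subunits was above that background, and so were the shares of higher genes in ribosome assembly, the proteasome and the respiratory chain. Among lists of nutrient uptake, sulfur genes had 1 of 15 higher (the sulfate transporter sul1, 0.59) and 1 lower, nitrogen genes 0 of 18 higher and 1 lower, hexose genes 1 of 15 each way, and the uracil-responsive list 0 of 5 either way, with urg3 at -0.21 and uck2 at -0.22. Mating genes had 2 of 20 each way. Markers of the mating types gave 1 of 6 M-cell genes higher and 0 lower, with a median level of -0.15 in the mutant and -0.35 in wild type, and 1 of 6 P-cell genes each way, with a median level of -0.09 in the mutant and 0.01 in wild type. None of these calls other than sul1 passed without each array in turn.

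Few genes passed the test before treatment, a count that does not measure how close the strains were. At 0 min 6 genes differed between the cds1 mutant and wild type, 2 higher (0.0406%) and 4 lower (0.0813%). They were hsp16 (1.64), SPOM_SPBPB10D8.04C (0.64), cds1 (-2.50), ura4 (-1.47), SPOM_SPAC27D7.11C (-0.71) and SPOM_SPBPJ4664.02 (-0.66), with the difference in brackets. Replicates of the 2 strains at 0 min with the same number deviated together. With the number as a block shared by all 25 groups of strain and time 40 genes were called, 21 higher and 19 lower. With it as a block in a fit of only these 2 groups 44 were called, 28 higher and 16 lower. Without cds1 replicate 1 at 0 min the count was 3 and without cds1 replicate 2 it was 14, and scaling all arrays to one distribution gave 28 higher and 16 lower. Array weights gave 89 calls. On cds1 replicate 1 at 0 min the 2 probes of a gene correlated at 0.364 across genes, against 0.602 and 0.670 on replicates 2 and 3.

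The 310 genes lower at 120 min had median differences of -0.04, -0.08, -0.12 and -0.26 after 0, 10, 30 and 60 min, against -0.48 at 120 min. For the 319 genes higher at 120 min the medians were 0.04, 0.06, 0.08 and 0.24, against 0.50 at 120 min. The means at 0 to 60 min come from other arrays than those compared at 120 min, but all arrays entered the estimate of the spread behind the calls. The genes were chosen by their difference at 120 min, which by itself enlarges the medians at that time. The step from 60 to 120 min is therefore no measure of how much the gap grew.

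The difference between strains in the change over 120 min, an interaction of strain and time, was called for 161 genes, 94 above 0 (1.91%) and 67 below 0 (1.36%). The difference is the signed change in the cds1 mutant minus that in wild type, so a gene that fell less in the mutant also lies above 0. Scaling all arrays to one distribution gave 23 and 26, and without wild-type replicate 1 at 0 min there were 89 calls in all. The MBF list gave 11 of 21 calls, all below 0, and the median of its differences was -0.78. The differences in change of cdc18, cig2, cdc22 and cdt1 were -2.52, -2.41, -2.00 and -2.02. The Pap1 list gave 7 of 22 calls, all above 0, and the iron uptake list 4 of 13, all below 0. The septum list gave 3 of 8 calls, all above 0, and its median change was -0.60 in the mutant and -1.18 in wild type.

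Rad3 acts upstream of Cds1, and at 120 min the cds1 mutant was set against the rad3 mutant. Here 97 genes differed, 14 higher in the cds1 mutant (0.284%) and 83 lower (1.69%). Apart from rad3 itself, whose level was -0.32 ± 0.06 in the cds1 mutant and -2.24 ± 0.45 in the rad3 mutant (SD, n = 3 each), no called gene was higher by 1 or more. Of the mitosis and cytokinesis list 13 of 21 genes were lower in the cds1 mutant and 0 were higher, with a median difference of -0.58 against 0.01 for all genes. Of the 13, 8 passed without each array in turn. uds1 stood at -0.71 ± 0.06 in the cds1 mutant and at 1.44 ± 0.23 in the rad3 mutant. slp1 stood at -0.56 ± 0.09 in the cds1 mutant and at 1.35 ± 0.16 in the rad3 mutant, and spo12 at -0.32 ± 0.14 in the cds1 mutant and 1.45 ± 0.14 in the rad3 mutant. In these mitotic genes the cds1 mutant lay below untreated wild type and the rad3 mutant above it. The largest decrease after cds1 itself was that of exg1, which differed by -2.59 ± 0.12 (SE, limma, adjusted p = 1.9e-21). The septum gene eng1 differed by -1.58, while adg1 and adg3 did not pass the test, with differences of -0.40 and -0.49.

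MBF genes were lower in the cds1 mutant than in the rad3 mutant for 10 of 21 members and higher for 0, and 7 of the 10 passed without each array in turn. cdt1 stood at 0.23 ± 0.22 in the cds1 mutant and at 1.93 ± 0.24 in the rad3 mutant, where it was at the wild-type level of 1.90 ± 0.18 (SD, n = 3 each). mik1 stood at -0.68 ± 0.04 in the cds1 mutant and at 0.58 ± 0.30 in the rad3 mutant, and dut1 at -0.52 ± 0.09 in the cds1 mutant and 0.51 ± 0.07 in the rad3 mutant. Both cdc18 and cdc22 differed by -0.81, calls that scaling all arrays to one distribution ended (-0.50 and -0.49). Histone, iron uptake and Pap1 genes gave 0 calls of 11, 13 and 22 members between the cds1 and rad3 mutants. Levels of frp1 were 0.73 ± 0.20 in the cds1 mutant and 0.36 ± 0.33 in the rad3 mutant, of gst2 3.68 ± 0.05 in the cds1 mutant and 3.70 ± 0.05 in the rad3 mutant, and of nc-pho1 -0.30 ± 0.14 in the cds1 mutant and -0.31 ± 0.10 in the rad3 mutant.

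**Figure D5:**
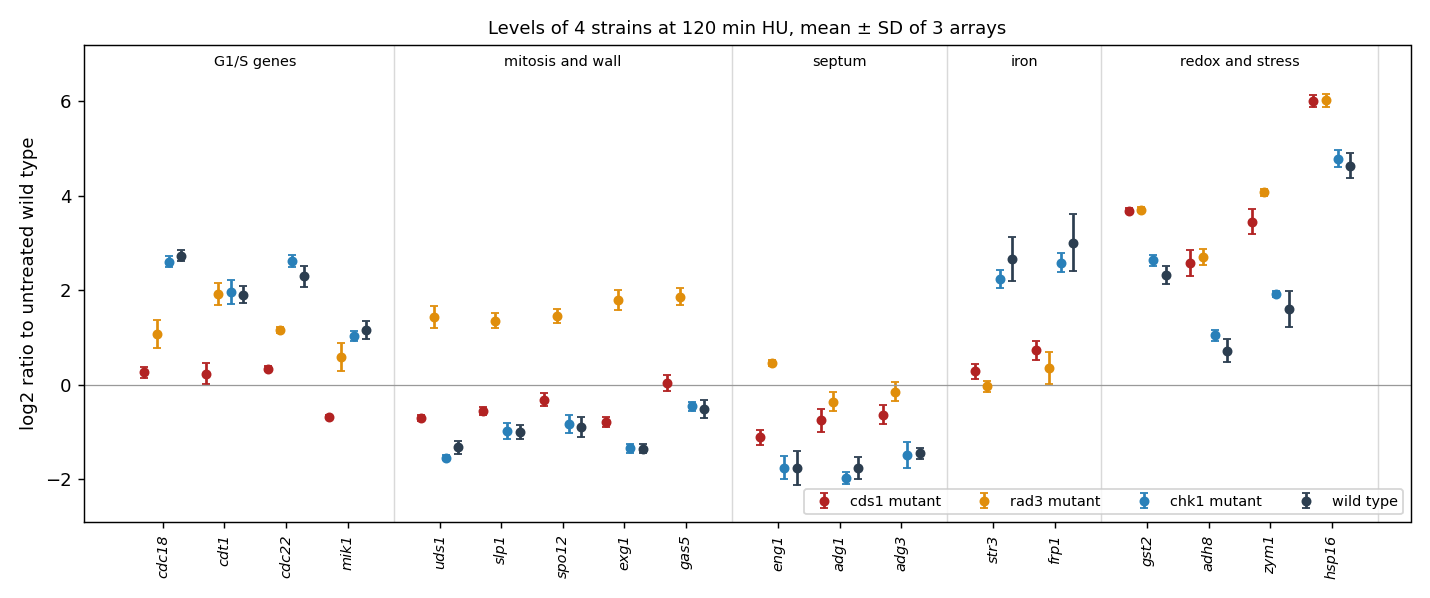
Levels of 18 genes at 120 min in the cds1, rad3 and chk1 mutants and wild type, in that order from left to right, as mean and SD of 3 arrays (log2 ratio to untreated wild type). For uds1, slp1, spo12 and exg1 the rad3 mutant lies between 1.35 and 1.79 and the cds1 mutant between -0.79 and -0.32; for str3, frp1, gst2 and hsp16 the cds1 and rad3 mutants lie close together.

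Against the chk1 mutant at 120 min, the cds1 mutant differed in 655 genes, 350 higher (7.11%) and 305 lower (6.2%). Replicates with the same number in these 2 groups deviated together. With the number as a block shared by all 25 groups of strain and time 1054 genes were called, 578 higher and 476 lower. With it as a block in a fit of only these 2 groups 1075 were called, 569 higher and 506 lower. Without cds1 replicate 1 the count was 376 and without chk1 replicate 1 it was 386. This comparison and that with wild type share the 3 cds1 arrays, so their values are given side by side only. The list counts that follow are from the fit without a block. MBF genes were lower in the cds1 mutant for 14 of 21 members against chk1 and higher for 1, res1 (0.31). Histones were lower for 8 of 11 members, cohesin for 6 of 10 and iron uptake genes for 7 of 13, with 0 higher in these 3 lists. Pap1 genes were higher for 10 of 22 members and lower for 1, and septum genes higher for 4 of 8 and lower for 0. cdc18 stood at 0.26 ± 0.12 in the cds1 mutant, 2.60 ± 0.11 in the chk1 mutant and 2.73 ± 0.12 in wild type. nc-pho1 stood at -0.30 ± 0.14 in the cds1 mutant, 2.98 ± 0.16 in the chk1 mutant and 2.46 ± 0.09 in wild type. The chk1 mutant was thus on the wild-type side of both genes. ura4 stood at -0.91 ± 0.19 in the cds1 mutant and at 0.13 ± 0.10 in the chk1 mutant, a difference of -1.04.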

How the data were processed

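The deposited values were log2 ratios of Cy5 to Cy3 signal. Per the labels, the Cy5 channel held the culture's cDNA and the Cy3 channel that of untreated wild-type cells, with dyes coupled by way of aminoallyl-dUTP. That the base of the logarithm is 2 was settled from the deposited values: taken as powers of 2, 100% of them gave ratios with no more than 3 decimals (relative tolerance 1e-05). How the authors normalized the values is not stated in the labels, and no scaling was added. Precision is limited by how many arrays there are.

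The 2 probes of a gene were averaged per array. Among 603 called genes with both probes tested, 7 (1.16%) had probes of opposite sign, and 157 were called on each probe alone. Of 4929 features, 4816 had 1 gene symbol in the platform annotation, and only these were named. Chromosomes came from a RefSeq gene table. In 9 of 65 pairs of arrays of a group, the difference between the arrays did not repeat between probes (r under 0.05), and each pair was averaged into 1 sample. None of these pairs was at 0 or 120 min in the 4 strains compared. The fit with all 70 arrays as samples is an alternative.

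Group means of 25 groups of strain and time were fitted in limma 3.58.1 (lmFit and eBayes, R 4.3.3) over 4921 features measured on 2 or more arrays in each group. Benjamini-Hochberg adjustment ran over all of these, and 0.05 was the threshold. The procedure was checked on simulated data with independent noise on each array, so the check does not cover samples that deviate together. Tables were made in Python 3.11.15 (pandas 2.3.3, numpy 2.4.6) and figures in matplotlib 3.10.9. p-values measure the spread between cultures called biological repeats.

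The members and the 32 gene lists were chosen with earlier results of these data known. Some lists share members. Named genes were cds1, rad3, chk1, sep1 and ura4, then the 15 largest increases and decreases past the threshold without overlap of the arrays, up to 4 members of each list with the smallest adjusted p (2 where none passed), and the 8 largest each way in the other comparisons but that at 0 min, taken from the top where room was short. The other genes given with values (suc22, spd1, nrm1, cdc10, res1, res2, pmp20 and 2 genes called at 0 min) were chosen after their values were seen. Withheld genes are not reported here.

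Deviations from the group mean of same-numbered samples correlated at 0.178, 0.304 and -0.156 between cds1 and wild type at 120 min, at 0.413, 0.4 and 0.125 at 0 min, at 0.376, 0.429 and 0.479 between cds1 and chk1 at 120 min, and at 0.043, 0.076 and 0.195 between cds1 and rad3. Between 120 and 0 min they correlated at 0.222, 0.368 and 0.151 in cds1 and at 0.551, 0.204 and 0.00796 in wild type. The numbers were taken to pair samples at 0 min and with chk1, where each pair was over 0.1, from the data alone. The alternatives were median centring, quantile normalization, single probes, every probe as a feature, no or stricter filters, 70 arrays, robust eBayes, array weights, replicate blocks, only the groups compared, a minimum change of 1, and leaving out each replicate.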

Additional observations from a re-analysis of the deposited data

Results flagged for a closer look

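The change over 120 min differed between the cds1 mutant and wild type for 161 genes, by the interaction of strain and time in limma (adjusted p under 0.05), and these results are listed because the effect of treatment differed between the strains. The 16 genes named here are the first 8 each way by the rule for named genes. No group held over 3 arrays, so single arrays far from the rest of their group were not looked for.

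The signed change in the cds1 mutant minus that in wild type was 2.21 for SPOM_SPCC663.08C, 1.73 for SPOM_SPCC18B5.02C, 1.87 for adh8, 1.62 for osr1 and 1.90 for ted1 on the log2 scale. It was 1.31 for SPOM_SPCC338.18, 1.26 for SPOM_SPAC2E1P3.01 and 1.17 for SPAC23A1.01c, whose mean level at 120 min was below that at 0 min in both strains. Leaving out wild-type replicate 2 at 120 min ended the call of ted1 (1.54). That of SPOM_SPCC338.18 ended in 7 of the 12 fits that left out 1 sample, with 0.98 without cds1 replicate 1 at 120 min as the smallest value.

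The same difference was below 0 for nc-pho1 (-3.29), cdc18 (-2.52), cig2 (-2.41), str3 (-2.39), frp1 (-2.04), cdt1 (-2.02), cdc22 (-2.00) and tos4 (-1.99). No fit that left out 1 sample ended the call of these 8 genes.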

How the results depend on the processing

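Counts of called genes moved with the processing, and so did calls of named genes. Named genes were mostly picked for large differences or small adjusted p, which favours keeping a call. Quantile normalization gave 243 calls for cds1 against wild type at 120 min (629 as reported), 44 at 0 min (6), 49 for the change over 120 min (161), 40 against rad3 (97) and 196 against chk1 (655). The first probe alone gave 345, 83 and 363 for wild type at 120 min, the change and chk1, and the second probe alone gave 335, 89, 58 and 331 for wild type at 120 min, the change, rad3 and chk1. Every probe as a feature gave 14 at 0 min. All 70 arrays as samples gave 21 at 0 min and 295 for the change, and array weights gave 89 and 392. A fit of only the groups compared, which have fewer samples for the spread, gave 398 for wild type at 120 min, 3 at 0 min, 82 for the change, 56 against rad3 and 435 against chk1. A log2 difference of at least 1, which is stricter by construction, left 46, 3, 33, 29 and 35 in the same order. Leaving out 1 sample gave 350 to 543, 3 to 14, 89 to 155, 65 to 99 and 376 to 604. The cause of these movements was otherwise not tested, and the small number of arrays limits the precision of every count. With the replicate number as a fixed block, the counts were 958 for wild type at 120 min, 40 at 0 min, 397 for the change, 161 against rad3 and 1054 against chk1. As a random block it gave 11 at 0 min and 488 for the change, and as a fixed block among the groups compared only, 44 at 0 min, 53 against rad3 and 1075 against chk1. For wild type at 120 min, the change and rad3, not every same-numbered pair correlated above 0.1, so the numbers were not taken to pair samples. Some of these pairs did deviate together, as between 120 and 0 min in cds1 (0.222, 0.368 and 0.151) and in wild-type replicate 1 (0.551). Whether these samples are paired is thus not settled, and the counts without a block depend on taking them as unpaired. Of 114 named genes called at 120 min, 51 kept the call under every alternative and 71 in each fit that left out 1 sample. Quantile normalization ended 46 of these calls, the first probe alone 36 and the second 38. Against the reported sign, ctt1 gave -0.12 on its first probe alone (0.91 on both) and rps2802, a ribosomal protein gene with near-identical copies, gave -0.19 on its second probe alone (0.69 on both). The alternatives not named left counts within 1.5 times the reported ones.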

Other observations

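A run of 3 genes on chromosome III were all higher in the cds1 mutant at 120 min. In the gene order of the RefSeq table (assembly ASM294v3), osr1, SPOM_SPCC663.07C and SPOM_SPCC663.08C are neighbours among the genes tested, and they differed from wild type by 1.75, 0.84 and 2.40 (limma, adjusted p = 7.1e-15, 2.3e-07 and 3.0e-17). At 0 min the differences were 0.12, 0.11 and 0.19. The next tested genes on either side, asf1 and SPOM_SPCC663.09C, did not pass the test, with differences of -0.20 and -0.05. Across the genome, 51 of 312 higher genes had a higher gene next to them (16.3%), against 12.5% of 4797 genes with a place in the order, and 60 of 305 lower genes had a lower neighbour (19.7%), against 11.9%.

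Of the 6 nearest tested genes around ura4, 5 differed between the strains at 120 min, in both directions. Over all genes tested 6.48% were called higher and 6.3% lower. On one side, mug135, SPOM_SPCC330.03C and rhp7 differed by 0.92, -0.47 and 0.44 at 120 min, and on the other side pmp20 and SPOM_SPCC330.07C differed by -0.80 and -0.76, all past the threshold. The third on that side, alg11, did not pass it (-0.02). At 0 min the same 5 differences were 0.27, -0.01, -0.21, -0.33 and -0.06. Of the 6 nearest tested genes around cds1, tho3 and thc1 on one side were called at 120 min (0.65 and 0.39, against 0.48 and 0.31 at 0 min). The other 4 did not pass the test: ism1 beyond them differed by 0.37, and cab5, ump1 and eap1 on the other side by 0.21, 0.04 and 0.19. The part of strain construction in these values was not tested.

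Genes of chromosome III were higher in the cds1 mutant more often than those of the other chromosomes. Of 854 tested genes on chromosome III 10.1% were called higher and 3.63% lower, against 5.92% higher and 6.70% lower of 2180 genes on chromosome I and 5.43% higher and 7.25% lower of 1751 on chromosome II. The median difference was 0.09 on chromosome III, -0.02 on I and -0.04 on II. The median level of chromosome III minus the mean of the medians of I and II was 0.00102, 0.00307 and 0.0162 on the cds1 arrays at 120 min and -0.0909, -0.0785 and -0.102 on the wild-type arrays. It was 0.0243, 0.0126 and 0.000424 in the rad3 mutant and -0.0837, -0.0748 and -0.0504 in the chk1 mutant at 120 min. At 0 min it was -0.0404, -0.029 and -0.0205 in the cds1 mutant and -0.0123, -0.0315 and -0.021 in wild type. No test was made of these chromosome values.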
